A study of Hansenula anomala with 15 samples.

Results

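The comparison set the 3 libraries taken at 48 h of an apricot fermentation against the 3 libraries taken at 32 h, 6 of the 15 libraries of a time course at 0, 16, 32, 48 and 64 h. The members were chosen by the time point in the library names alone. Every library was polyadenylated RNA from whole fermentation broth, counted on the genes of the yeast Wickerhamomyces anomalus, which the organism label gives under its older name Hansenula anomala. No strain, allele, inoculum, medium or agent other than fermentation time separates the groups in the labels, and the 3 libraries of a time point are biological replicates whose vessels are not described. P-values therefore measure the spread between these libraries.

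W. anomalus is a yeast of fruit and wine fermentations, known for acetate esters and for respiring readily when oxygen is present. As sugar runs down, yeasts generally slow growth and make fewer ribosomes. They turn to stored carbohydrate, and to ethanol and acetate through the glyoxylate shunt and gluconeogenesis. Cells in this state also carry more heat shock proteins and antioxidant enzymes, and their cell wall is remodelled.

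Between 32 and 48 h no gene passed the test for a change. Of 6327 genes tested, 0 rose (0%) and 0 fell (0%), with a lowest adjusted p of 0.783 in edgeR's quasi-likelihood test with Benjamini-Hochberg adjustment. Without adjustment 347 genes (5.48%) had p under 0.05, 187 with a higher mean at 48 h (2.96%) and 160 with a lower one (2.53%). limma-voom also called 0 genes, with 344 at an unadjusted p under 0.05, and DESeq2 called 2 unannotated genes as fallen (0.0316%). A missed threshold does not show that a gene stayed level, so an equivalence test asked of each gene whether its change was smaller than a set fold. By that test 5630 genes (89%) were level within 4-fold, 0 within 2-fold and 0 within 1.5-fold, the lowest adjusted equivalence p at 2-fold being 0.0631. Among single genes, the 95% interval of the change lay inside 2-fold for 1802 (28.5%), and these included the 2-oxoglutarate dehydrogenase KGD1, the histone deacetylase RPD3, the autophagy enzyme ATG7 and 21 of 33 proteasome genes. The most abundant transcripts, of cell wall mannoproteins, alcohol dehydrogenase and heat shock proteins, were not among them.

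In the same fit, 2558 genes (40.4%) passed for 16 h against 0 h, 2007 (31.7%) for 32 h against 16 h, and 1 (0.0158%) for 64 h against 48 h. Neighbouring comparisons share libraries, and the differences between these numbers were not tested. The 6 libraries held 17.6 to 25.9 M counts, and 6355 to 6414 genes had a count. Levels below are counts per 1 M counts of the library (CPM), scaled by TMM, a factor per library that centres the bulk of genes, and a floor of 3 counts in a library came to 0.116 to 0.171 CPM before that scaling. Floors cover counting error only. At 32 h 25.3% to 31.7% of a library's counts lay in its 10 leading genes, and at 48 h 20.7% to 25.5%. In whole broth, fewer cells and less RNA per cell cannot be told apart, and every level is a share of the yeast RNA.

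Libraries were not always closest to those of their own time point. Over 4221 genes averaging 10 CPM or more, Spearman's rho within a time point averaged 0.905, from 0.852 to 0.978, and between the time points it averaged 0.891, from 0.828 to 0.962. Replicate 3 of 32 h was closest to replicate 2 of 48 h, at a rho of 0.962, while its rho with its own mates was 0.852 and 0.871. Replicates 1 and 2 of 32 h were close to each other (0.978), and replicate 2 also to replicate 1 of 48 h (0.945). The mean distance between times exceeded that within times by 0.0139, with p = 0.2 in an exact permutation test over the 10 splits of 6 libraries into 3 and 3, which can give no p below 0.1. Without replicate 3 of 48 h the sign turned, to -0.002, and without replicate 3 of 32 h the excess was 0.0396.

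**Figure D1:**
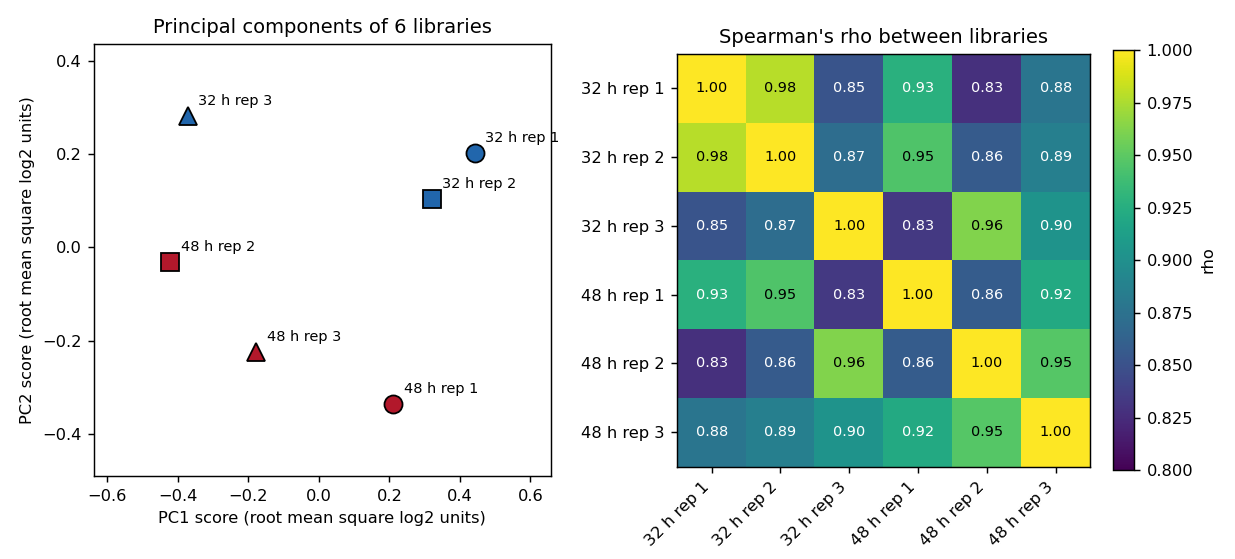
Left, scores of the 6 libraries on the first and second principal components of log2 CPM, in root mean square log2 units, with 32 h in blue, 48 h in red and marker shape for the replicate; right, Spearman's rho for each pair of libraries. The first component (58.5% of the variance) sets 32 h replicates 1 and 2 and 48 h replicate 1, between 0.21 and 0.44, apart from the other 3 libraries, between -0.42 and -0.18, across the time points.

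The first principal component, with 58.5% of the variance, crossed the time points, and the second, with 25.2%, held the 3 libraries of 32 h between 0.10 and 0.28 and those of 48 h between -0.34 and -0.03. Time accounted for 28.6% of the sum of squares. Any split of the 6 libraries into 3 and 3 takes some share, and this one was not tested against the others. The difference among replicates touched particular groups of genes. Of 16 glycolysis genes, 13 had their highest 32 h level in replicate 3 and 12 their highest 48 h level in replicate 2, against 43.7% and 37.3% of all genes tested. Of 33 proteasome genes, 30 were highest at 48 h in replicate 1, against 36.7% of all genes, and 0 in replicate 2. Of 66 heat shock and chaperone genes, 42 were highest at 48 h in replicate 1. In a fit of the 6 libraries alone that left out replicate 3 of 32 h, chosen after seeing the data and the 32 h library nearest to one of 48 h, 215 genes rose (3.4%) and 102 fell (1.61%); leaving out any of the other 5 gave 0 and 0.

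Among the 20 genes with the largest share of counts, 13 of them annotated, 17 had a lower mean at 48 h (49.5% of all genes) and 3 a higher one, and 9 had all 48 h values below all 32 h values. Across all genes tested, 20.7% did not overlap, 9.99% higher and 10.7% lower at 48 h. Overlap was scored on TMM levels only, with factors of 1.01 to 1.41 at 32 h and 1.58 to 1.83 at 48 h. As unscaled percent of counts, ADH3 did overlap, with 3.18 lowest at 32 h and 3.74 highest at 48 h. CWP2 did not, with 4.73 lowest at 32 h and 3.72 highest at 48 h. The median change of the 20 was -1.01 on the log2 scale against 0.00 for all genes. None of their intervals lay inside 2-fold, 6 lay inside 4-fold (85.1% of all genes), and 8 were level within 4-fold by the equivalence test. When libraries were scaled by their totals in place of TMM, the median of all genes moved to 0.45, and 1080 of 6327 were lower. The median of the 20 became -0.54 and 14 were lower. These genes were ranked by counts, which are not corrected for length.

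The leading transcripts encode cell surface proteins. CWP2, a mannoprotein anchored in the cell wall, was at 61858, 38386 and 33555 CPM at 32 h and 16662, 20033 and 23514 CPM at 48 h, in the order of replicates 1 to 3 used throughout. All 48 h values were below all 32 h values, but the log2 fold change of 48 h against 32 h, called the difference from here on, had an SE of 0.68 and an interval of -2.59 to 0.29 around -1.15. CCW12, another wall mannoprotein, was at 71233, 39849 and 19994 CPM at 32 h and 18635, 13529 and 22908 CPM at 48 h. Its replicates spread so widely at 32 h that 1 value of 48 h lay above the lowest of 32 h, and the interval of the difference of -1.25 was -2.58 to 0.08. ADH3, the leading alcohol dehydrogenase, which in Saccharomyces cerevisiae is the mitochondrial isozyme, was at 45093, 35166 and 22569.9 CPM at 32 h and 22282, 12608 and 18222 CPM at 48 h. Replicate 3 of 32 h and replicate 1 of 48 h nearly met, and the difference was -0.95 with an interval of -2.27 to 0.37.

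Abundant stress transcripts showed a pair of patterns. HSP26, a small heat shock protein that binds unfolded proteins, was at 23872, 24218 and 6238 CPM at 32 h and 37655, 5752 and 11694 CPM at 48 h. The means were alike (difference 0.02, SE 0.95), each time held high and low libraries, and the interval ran from -2.01 to 2.05. SSA3, a stress-inducible Hsp70, was likewise lowest in replicate 3 of 32 h and replicate 2 of 48 h, at 15264, 12169.6 and 4256 CPM at 32 h and 21451, 3524 and 8869 CPM at 48 h (difference 0.09, interval -1.57 to 1.76). HSP30, a stress-induced membrane protein, was instead lower in each 48 h library, at 24592, 16927 and 15874 CPM at 32 h and 10229.7, 5068 and 8063 CPM at 48 h, a difference of -1.30 with an interval of -2.45 to -0.14. HSP31, a stress-response glyoxalase and chaperone, was at 14489, 9729 and 7271 CPM at 32 h and 3457, 2832 and 3175 CPM at 48 h. Its 3 values at 48 h lay close together and below each 32 h value, and the difference of -1.73 (SE 0.53, unadjusted p = 0.0059) was the furthest from 0 of the annotated genes among the 20.

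**Figure D2:**
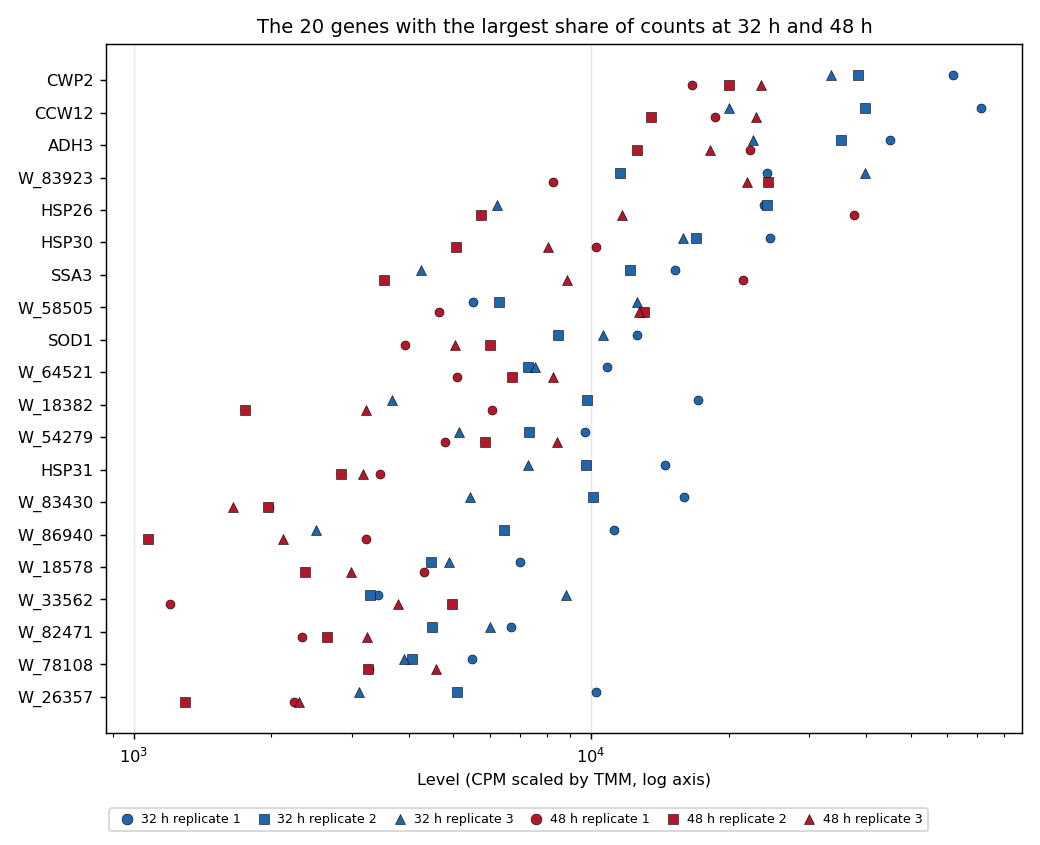
Level of the 20 genes with the largest share of counts in each of the 6 libraries (CPM scaled by TMM, log axis), with 32 h in blue, 48 h in red and marker shape for the replicate; W_ stands for WICANDRAFT_. HSP26 and SSA3 mix the time points, whereas the 48 h values of HSP31, SOD1 and W_83430 sit below all their 32 h values.

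SOD1, the copper and zinc superoxide dismutase, was at 12584, 8485 and 10611 CPM at 32 h and 3917, 5998 and 5036 CPM at 48 h. The groups did not overlap, and the difference of -1.08 had an interval of -2.17 to 0.00. WICANDRAFT_64521, described as the vacuolar protease B, was at 10831, 7276 and 7535 CPM at 32 h and 5080.4, 6726 and 8257 CPM at 48 h, with overlap and a difference of -0.35 (interval -1.42 to 0.71). WICANDRAFT_18382, an asparaginase, which frees ammonia from asparagine, was at 17108, 9811 and 3661 CPM at 32 h and 6073, 1750.1 and 3223 CPM at 48 h. It varied more among the 32 h libraries than between the means, and its interval was -3.15 to 0.21. WICANDRAFT_82471, the porin of the outer mitochondrial membrane, was at 6678, 4494 and 6021 CPM at 32 h and 2328, 2648 and 3229 CPM at 48 h without overlap (difference -1.07, interval -2.48 to 0.35). WICANDRAFT_26357, described as a benzoquinone reductase-like protein, was at 10254, 5086 and 3115 CPM at 32 h and 2239, 1294 and 2295 CPM at 48 h, also without overlap (difference -1.66, interval -2.87 to -0.46). WICANDRAFT_33562, a member of the ISP4 family, was at 3412, 3292 and 8816 CPM at 32 h and 1202, 4955 and 3781 CPM at 48 h, with replicate 3 highest at 32 h and replicate 1 lowest at 48 h.

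The other 7 of the 20 have no annotation. WICANDRAFT_83923 was at 24232, 11593 and 39812 CPM at 32 h and 8263, 24423 and 21987 CPM at 48 h, and WICANDRAFT_58505 at 5507, 6302 and 12584 CPM at 32 h and 4643, 13067 and 12755 CPM at 48 h; both overlapped widely. WICANDRAFT_86940 was at 11203, 6460.3 and 2503 CPM at 32 h and 3227, 1074 and 2119 CPM at 48 h, again with 1 low library at 32 h. Differences of WICANDRAFT_54279, WICANDRAFT_78108 and WICANDRAFT_18578 were -0.22, -0.28 and -0.76, with intervals of -1.999 to 1.57, -1.62 to 1.06 and -1.71 to 0.20. The seventh, WICANDRAFT_83430, is described with the genes furthest from level.

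The tightest transcripts named here were sought only among annotated genes averaging 100 CPM or more, a bound set by the rule. Of these 729 genes, the interval lay inside 2-fold for 106, against 28.5% of all genes tested. The 10 that reached least far from 0 lay within 1.52- to 1.63-fold in either direction. Of all annotated genes tested, 34 had an interval inside 1.5-fold, none of them among these 10. ATG7, the enzyme that activates the ubiquitin-like proteins of autophagy, was at 112, 108 and 91.1 CPM at 32 h and 123.1, 93.6 and 104 CPM at 48 h. Its difference was 0.04 with an interval of -0.52 to 0.60. RPD3, a histone deacetylase, was at 116, 95.6 and 90.1 CPM at 32 h and 94.1, 93.6 and 120.3 CPM at 48 h, and its difference of 0.03 lay within -0.55 to 0.61. KGD1, the first subunit of 2-oxoglutarate dehydrogenase in the citrate cycle, was at 360.0, 414 and 342 CPM at 32 h and 383, 376 and 382 CPM at 48 h. The 48 h values lay inside the 32 h range, and the interval was -0.57 to 0.63.

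MBF1, a transcriptional coactivator, was at 328, 333 and 256 CPM at 32 h and 370.1, 289 and 282 CPM at 48 h (interval -0.60 to 0.68). RVS161, an amphiphysin-like protein of endocytosis, was at 122, 142 and 95.3 CPM at 32 h and 151, 98.6 and 95.4 CPM at 48 h (interval -0.67 to 0.55). WICANDRAFT_93648, a protein disulfide isomerase, which forms disulfide bonds in the endoplasmic reticulum, was at 125, 159 and 140.3 CPM at 32 h and 137, 164 and 122 CPM at 48 h (interval -0.67 to 0.67). For each of these the time points overlapped and the difference of means was smaller than the spread. WICANDRAFT_71423, an amine oxidase, was at 171, 158 and 230.2 CPM at 32 h and 144, 201 and 226 CPM at 48 h, and its higher libraries were replicate 3 of 32 h and replicates 2 and 3 of 48 h. The remaining members of the 10 were SSM4, TMS1 and ANR2, with differences of 0.08, 0.03 and -0.08 and intervals of -0.50 to 0.65, -0.63 to 0.69 and -0.70 to 0.55. These 10 were ranked by the width and place of their intervals, so that they are the best resolved of 729 and not typical of them.

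At the highest levels little was resolved as level. Of 98 genes averaging 1000 CPM or more, 78 of them annotated, 0 had an interval inside 2-fold. In a fit of the 6 libraries alone, 2701 of all genes (42.7%) were level within 2-fold by the adjusted equivalence test, among them 7 of the 98, which are named here after their values were seen. ACO1, the aconitase of the citrate cycle, was at 3186, 2919 and 2924 CPM at 32 h and 2524, 2924 and 2546 CPM at 48 h. Its libraries lay close together, and its interval in the fit of all libraries, -1.02 to 0.66, reached just past 2-fold. WICANDRAFT_95589, an aldehyde dehydrogenase, was at 1959.9, 2684 and 1475 CPM at 32 h and 2858, 1591 and 1744 CPM at 48 h (difference 0.02). WICANDRAFT_85553 and WICANDRAFT_84276, transporters of the major facilitator superfamily, had differences of 0.01 and -0.10. WICANDRAFT_84276 was at 1633, 1758 and 1384 CPM at 32 h and 1321, 1455 and 1674 CPM at 48 h, a range shared by both times. WICANDRAFT_15902, with an FAD binding domain, differed by 0.11, and the unannotated WICANDRAFT_76402 and WICANDRAFT_92376 by 0.04 and 0.04.

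Glycolysis, the route from glucose to pyruvate, was not resolved as level or as changed. Of its 16 genes 0 rose, 0 fell, 0 had an interval inside 2-fold and 14 were level within 4-fold, and 13 had a lower mean at 48 h (median -0.25; 0.18 with library size scaling). The median spread within a time was 0.66 log2 units, against 0.33 for all genes. WICANDRAFT_25185, a glyceraldehyde 3-phosphate dehydrogenase and the most abundant member, was at 2787, 2489 and 7712 CPM at 32 h and 2049, 4428 and 3631 CPM at 48 h. WICANDRAFT_88059, the pyruvate kinase that makes the final pyruvate, was at 100.02, 91.0 and 611 CPM at 32 h and 80.4, 283 and 166 CPM at 48 h. In both, replicate 3 stood highest at 32 h and replicate 2 at 48 h, and the intervals were -1.97 to 1.24 and -2.51 to 1.31. WICANDRAFT_30943, an enolase, was at 384, 398 and 1838 CPM at 32 h and 307, 1427 and 856 CPM at 48 h, a difference of -0.02 with an interval of -1.78 to 1.75. The hexokinase WICANDRAFT_79472, which phosphorylates glucose on entry, had the opposite order, at 1054, 642 and 442 CPM at 32 h and 635, 229 and 564 CPM at 48 h. GPM1 and PGK1 gave intervals of -1.61 to 0.87 and -2.11 to 1.07.

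Genes of gluconeogenesis and the glyoxylate shunt, which build sugar from C2 compounds, differed among themselves. Of 9 genes 0 rose, 0 fell and 0 had an interval inside 2-fold. Upward 2 did not overlap (22.2%, against 9.99% of all genes) and downward 1 (11.1%, against 10.7%). FBP1, the fructose-1,6-bisphosphatase specific to gluconeogenesis, was at 1118, 545 and 257 CPM at 32 h and 194, 157 and 133 CPM at 48 h. All 48 h values were lower (difference -1.99, SE 0.58, unadjusted p = 0.00471). PCK1, which makes phosphoenolpyruvate at the entry of the same pathway, was at 1096, 1101 and 268 CPM at 32 h and 1412, 590.0 and 496 CPM at 48 h and overlapped (difference 0.02, interval -1.57 to 1.61). The malate synthase MLS1 was at 104, 155 and 106 CPM at 32 h and 418, 209 and 192 CPM at 48 h without overlap (difference 1.17, interval 0.27 to 2.06), and a second malate synthase, WICANDRAFT_28497, at 313, 561 and 223 CPM at 32 h and 1437, 532 and 358 CPM at 48 h with overlap. ICL1, the isocitrate lyase that opens the shunt, was at 1163, 2069 and 454 CPM at 32 h and 3134, 1342 and 867 CPM at 48 h. Replicate 1 was highest at 48 h in all 9 genes, and the interval of ICL1 ran from -1.52 to 2.59.

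The citrate cycle was better resolved. Of 15 genes 0 rose, 0 fell, 6 had an interval inside 2-fold (40%) and 14 were level within 4-fold (median -0.18; 0.28 with library size scaling). MDH1, the malate dehydrogenase, was at 3408, 2909.9 and 2692 CPM at 32 h and 1916, 2648 and 2896 CPM at 48 h (interval -1.20 to 0.66). The pair that forms succinyl-CoA ligase lay lowest against 32 h. LSC2, its beta subunit, was at 492, 379 and 242 CPM at 32 h and 129.8, 182 and 121 CPM at 48 h (difference -1.36, SE 0.40), and LSC1, its alpha subunit, at 537, 407 and 199 CPM at 32 h and 179, 187 and 178 CPM at 48 h (difference -1.07, SE 0.48). Neither pair of groups overlapped. KGD2, SDH4, IDH2 and CIT3 were, like KGD1, among the members with intervals inside 2-fold, with differences of 0.10, -0.18, -0.08 and -0.19.

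For the enzymes of ethanol and aroma formation, the fixed panel of 21 names found 8 in the annotation, all tested, with 0 risen and 0 fallen. Of 18 alcohol and sorbitol dehydrogenases, 2 had an interval inside 2-fold and 14 were level within 4-fold (median -0.32, and 0.09 with library size scaling). Without overlap, 4 were lower at 48 h (22.2%, against 10.7% of all genes) and 1 higher (5.56%, against 9.99%). Besides ADH3, the sorbitol dehydrogenase WICANDRAFT_35934 was at 965, 641 and 444 CPM at 32 h and 299, 276 and 337 CPM at 48 h, with each 48 h value lower (difference -1.17, interval -2.05 to -0.29). WICANDRAFT_35547, of the same family, went the other way at low level, at 6.60, 3.86 and 4.21 CPM at 32 h and 20.01, 10.3 and 17.5 CPM at 48 h (difference 1.71, interval 0.57 to 2.84). SFA1, which reduces aldehydes to fusel alcohols in S. cerevisiae, was at 617, 384 and 499 CPM at 32 h and 201, 371 and 382 CPM at 48 h, and the weakly expressed ADH4 at 6.08, 6.39 and 20.3 CPM at 32 h and 10.4, 20.99 and 15.2 CPM at 48 h. The difference of SFA1 was -0.65 (interval -1.76 to 0.45) and that of ADH4 0.50 (interval -0.75 to 1.76).

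The list of ester genes and of the Ehrlich pathway, which turns amino acids into fusel alcohols, was level within 4-fold in 7 of 7 (89% of all genes). Its members WICANDRAFT_46076 and WICANDRAFT_84167 are described only as thiamine pyrophosphate-requiring enzymes. ARO8, an aromatic aminotransferase, was at 754, 486 and 208 CPM at 32 h and 309, 233 and 426 CPM at 48 h. Its sister ARO9 was at 83.2, 116 and 174 CPM at 32 h and 110.1, 219.6 and 188 CPM at 48 h. The order of the libraries differed between them, and the differences of -0.58 and 0.47 had intervals of -1.68 to 0.52 and -0.86 to 1.81. ARO10, the decarboxylase of the pathway, was at 10.8, 10.04 and 10.2 CPM at 32 h and 15.9, 12.1 and 11.3 CPM at 48 h; the groups did not overlap, yet the difference was only 0.34 (interval -0.51 to 1.18). The branched-chain aminotransferase BAT1 differed by -0.33, and IAH1, an esterase that hydrolyses isoamyl acetate, by -0.34 (interval -1.05 to 0.37). Aldehyde dehydrogenases, a family that oxidises aldehydes, had 3 of 13 intervals inside 2-fold and 0 genes without overlap (20.7% of all genes). The abundant WICANDRAFT_25445 was at 2963, 2718 and 588 CPM at 32 h and 2694, 724 and 744 CPM at 48 h, with replicate 3 of 32 h and replicates 2 and 3 of 48 h low.

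Of 14 cell wall mannoproteins and glucanases, CWP2 and CCW12 among them, 0 rose and 0 fell, and 1, GAS5, had an interval inside 2-fold. Without overlap, 3 were lower at 48 h (21.4%, against 10.7% of all genes) and 4 higher (28.6%, against 9.99%). The list includes PHR1, which matched by symbol but is described as a photolyase, and it is among the 4 higher genes. The glucanase SCW10 was at 4224, 2689 and 4167 CPM at 32 h and 2095, 3467 and 4389 CPM at 48 h (difference -0.15, interval -1.41 to 1.10). GAS1, which elongates wall beta-glucan, was at 231, 265 and 261 CPM at 32 h and 129.6, 212 and 161 CPM at 48 h (difference -0.59), and BGL2, a wall glucanosyltransferase, at 1389, 855 and 610.3 CPM at 32 h and 564, 505 and 588 CPM at 48 h (difference -0.78); neither overlapped. GAS4, which S. cerevisiae uses in the spore wall, was at 4.57, 3.74 and 6.06 CPM at 32 h and 9.96, 13.6 and 17.3 CPM at 48 h, higher in each 48 h library (difference 1.51, interval 0.71 to 2.31). CRH1, which links chitin to glucan, was at 13.8, 14.7 and 9.78 CPM at 32 h and 22.6, 21.2 and 24.2 CPM at 48 h, also higher in each (difference 0.83, interval 0.14 to 1.53).

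Of 66 heat shock and chaperone genes 0 rose, 0 fell, 14 had an interval inside 2-fold (21.2%) and 58 were level within 4-fold. Without overlap, 10 were lower (15.2%, against 10.7% of all genes) and 4 higher (6.06%, against 9.99%). Their summed level was 110948, 87909.9 and 46954 CPM at 32 h and 101575, 27799 and 51188 CPM at 48 h, lowest in replicate 3 of 32 h and replicate 2 of 48 h. HSP104, the disaggregase, was at 2370.5, 2799 and 993 CPM at 32 h and 4622, 822 and 1580.0 CPM at 48 h, and HSP82, an Hsp90, at 4271, 2471 and 898 CPM at 32 h and 5209, 743 and 2889 CPM at 48 h. Differences of 0.19 and 0.21 came with intervals of -1.30 to 1.68 and -1.53 to 1.95. CPR3, a mitochondrial cyclophilin, was at 3874, 2491 and 1318 CPM at 32 h and 1061, 629.9 and 886 CPM at 48 h without overlap (difference -1.58, interval -2.95 to -0.20). KAR2, the Hsp70 of the endoplasmic reticulum, is described below with the genes furthest from level.

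Oxidative stress genes had 17 of 22 means lower at 48 h, 9 of them without overlap (40.9%, against 10.7% of all genes), and a median of -0.51, which was -0.07 with library size scaling. CCP1, the cytochrome c peroxidase, was at 2113, 1489 and 829 CPM at 32 h and 526, 565 and 509 CPM at 48 h (difference -1.47, interval -2.60 to -0.34). GRX5, a mitochondrial glutaredoxin, was at 368, 238 and 301 CPM at 32 h and 150.5, 122 and 161 CPM at 48 h (difference -1.06, interval -2.04 to -0.09). The catalase CTT1 was at 55.1, 84.1 and 460.2 CPM at 32 h and 57.7, 255 and 87.1 CPM at 48 h, and a second catalase, CTA1, at 149.8, 143 and 193 CPM at 32 h and 124, 188 and 130.03 CPM at 48 h. CTT1 was carried by replicate 3 of 32 h and replicate 2 of 48 h, whereas CTA1 had an interval of -0.99 to 0.72, inside 2-fold.

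Reserve carbohydrate and glycerol genes gave 3 of 14 intervals inside 2-fold and 13 level within 4-fold. TPS1, which makes trehalose 6-phosphate, was at 83.6, 105 and 129 CPM at 32 h and 86.0, 102 and 90.9 CPM at 48 h (difference -0.18, interval -0.80 to 0.43), and GDB1, the glycogen debranching enzyme, at 276, 263 and 412 CPM at 32 h and 222, 327 and 310.2 CPM at 48 h (difference -0.15, interval -0.90 to 0.61). ATH1, the acid trehalase, was the third, at -0.26. GLC3, the glycogen branching enzyme, was at 28.4, 1.80 and 47.8 CPM at 32 h and 56.3, 50.2 and 46.02 CPM at 48 h; a single library, replicate 2 of 32 h, was far below the rest. Its difference of 0.97 (interval -0.79 to 2.72) includes that library. Of the other 32 h values, 28.4 CPM lay below the 48 h values and 47.8 CPM among them.

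Respiratory chain and mitochondrial ribosomal transcripts had mostly lower means at 48 h under TMM and mostly higher ones under library size scaling. Of all 6327 genes tested, 1080 were lower under library size scaling, a smaller share than in either list. Of 50 respiratory chain and ATP synthase genes, 38 had a lower mean (17 with library size scaling), and 10 had an interval inside 2-fold (median -0.32, and 0.13 with library size scaling). Downward 15 did not overlap (30%, against 10.7% of all genes) and upward 0 (against 9.99%). COX8, a subunit of cytochrome c oxidase, was at 5848, 4207 and 2737 CPM at 32 h and 1899, 1897 and 2233 CPM at 48 h (difference -1.09, interval -2.13 to -0.04). QCR10, of the cytochrome bc1 complex, was at 1056, 974 and 377 CPM at 32 h and 407, 265 and 367 CPM at 48 h (difference -1.21), and ATP2, the ATP synthase beta subunit, at 543, 558 and 804 CPM at 32 h and 448, 974 and 763 CPM at 48 h (difference 0.20). ATP2 had its high libraries where COX8 did not, in replicate 3 of 32 h and replicate 2 of 48 h. Mitochondrial ribosomal proteins had 64 of 69 lower means (31 with library size scaling, with medians of -0.41, then 0.04). Of them 27 did not overlap (39.1%, against 10.7% of all genes), and 67 of 69 were level within 4-fold (89% of all genes). MRP49 was at 560.0, 360.0 and 206 CPM at 32 h and 174, 119.8 and 163 CPM at 48 h (difference -1.30, interval -2.33 to -0.27).

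Of 36 mitochondrial carriers 10 had an interval inside 2-fold, and the median was -0.04. PIC2, a phosphate carrier, was at 4015, 4011 and 2995 CPM at 32 h and 2362, 2399 and 2459 CPM at 48 h (difference -0.61, interval -1.44 to 0.22), and PET9, which exchanges ADP for ATP, at 4877, 3403 and 3339.9 CPM at 32 h and 1414, 1826 and 2055 CPM at 48 h (difference -1.13, interval -2.15 to -0.12). Neither overlapped, and the 48 h values of PIC2 lay within a narrow range. Peroxisome and beta-oxidation genes had 11 of 35 intervals inside 2-fold, and POT1, the thiolase of the pathway, was at 274, 269 and 151 CPM at 32 h and 142, 159 and 124 CPM at 48 h (difference -0.70, interval -1.69 to 0.28).

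Cytosolic ribosomal proteins stood lowest of the large lists. Of 83 genes 0 rose, 0 fell, and 1 had an interval inside 2-fold (1.2%, against 28.5%), while 74 were level within 4-fold. A lower mean was found for 78, 46 of them without overlap (55.4%, against 10.7%), and the median was -0.64; library size scaling left 64 lower and a median of -0.19. RPP0, the stalk protein of the large subunit and the most abundant member, was at 3309, 1803 and 1966 CPM at 32 h and 736, 953 and 967 CPM at 48 h. All 48 h values were lower, with a difference of -1.41, an SE of 0.62 and an interval of -2.73 to -0.10. RPL10 was at 439.9, 411 and 700.1 CPM at 32 h and 285, 624 and 432 CPM at 48 h, with replicates 3 of 32 h and 2 of 48 h high and an interval of -1.39 to 0.97. RPS2 was at 779, 447 and 570.4 CPM at 32 h and 174, 305 and 252 CPM at 48 h (difference -1.30, interval -2.63 to 0.04). The summed level of the list was 25229, 17332 and 21298 CPM at 32 h and 8593, 13868 and 12378 CPM at 48 h.

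Other genes of translation had medians nearer to 0, though some lists held many genes without overlap. Ribosome biogenesis factors, which assemble ribosomes, had 46 of 106 intervals inside 2-fold (43.4%) and 105 level within 4-fold, with a median of 0.08. Of them 17 were higher without overlap (16.0%, against 9.99% of all genes) and 3 lower (2.83%, against 10.7%). NMD3, an export adaptor of the large subunit, was at 45.05, 55.3 and 39.3 CPM at 32 h and 48.2, 52.2 and 41.3 CPM at 48 h (interval -0.59 to 0.63), and the helicase DBP2 at 336, 278 and 338 CPM at 32 h and 185, 193 and 207 CPM at 48 h (difference -0.70, interval -1.61 to 0.20), without overlap. Aminoacyl-tRNA synthetases had 15 of 35 intervals inside 2-fold (42.9%) and all 35 level within 4-fold, with a median of -0.18. Of them 10 were lower without overlap (28.6%, against 10.7% of all genes) and 1 higher (2.86%, against 9.99%). GUS1, the glutamyl-tRNA synthetase, was at 108, 110.1 and 109 CPM at 32 h and 58.6, 82.3 and 73.0 CPM at 48 h (difference -0.61, interval -1.19 to -0.04). Translation factors had 15 of 40 inside 2-fold (median -0.13), with 7 lower (17.5%) and 2 higher (5%) without overlap. The elongation factor WICANDRAFT_82540 was at 5849.8, 4161 and 4047 CPM at 32 h and 2709.8, 3421 and 3130.2 CPM at 48 h (difference -0.60, interval -1.50 to 0.30).

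**Figure D3:**
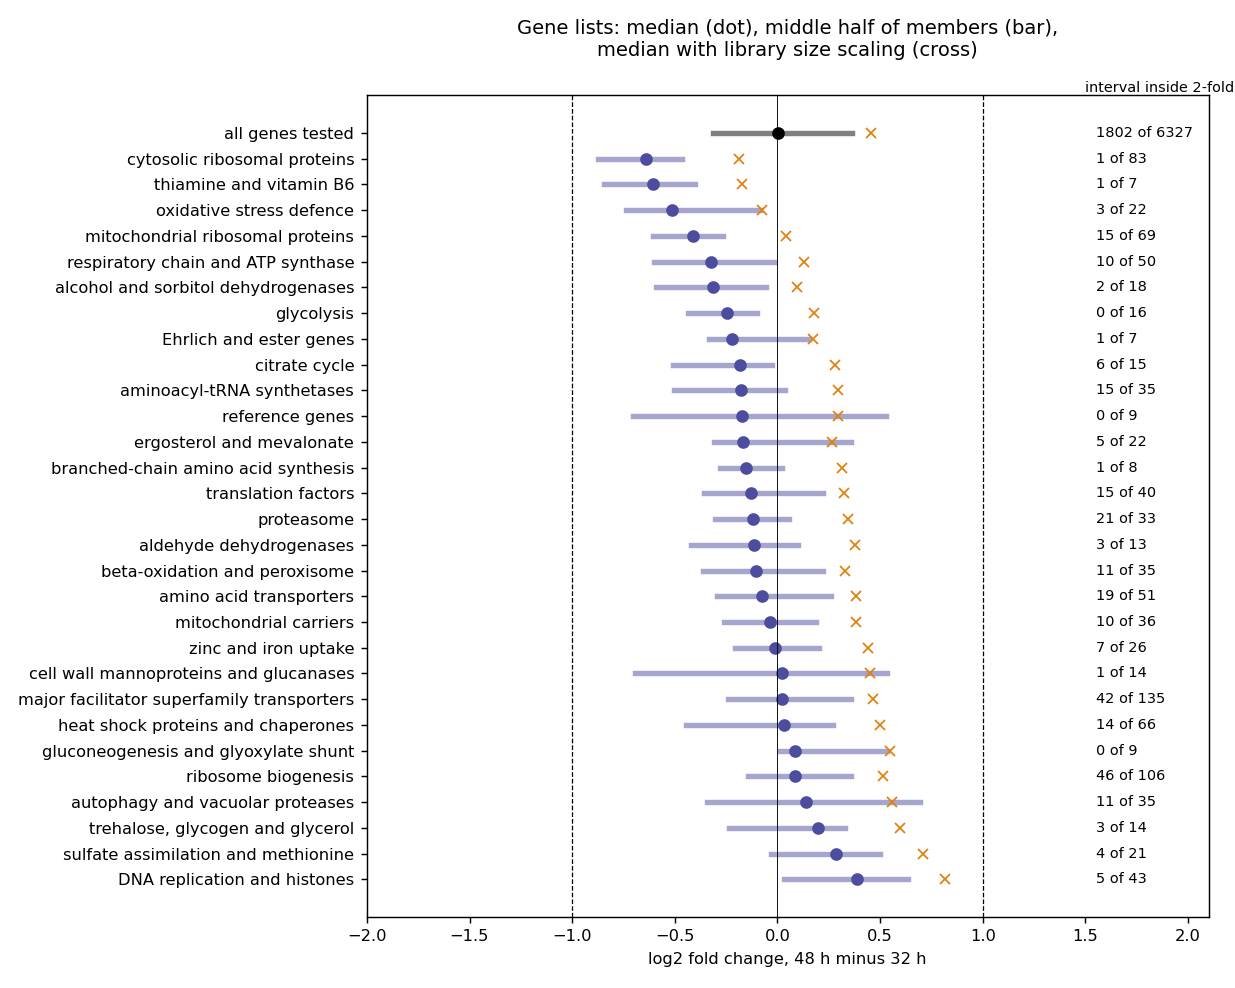
Median log2 fold change of 48 h against 32 h (dot), interquartile range (bar) and median after library size scaling (cross) for the 29 gene lists and all tested genes, with the number of members whose 95% interval lay inside 2-fold at the right; dashed lines mark 2-fold. Cytosolic ribosomal proteins have the lowest median, -0.64, DNA replication genes and histones the highest, 0.39, and the proteasome the largest share inside 2-fold, 21 of 33.

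The proteasome, which degrades ubiquitin-tagged proteins, had the largest share of intervals inside 2-fold of the 29 lists, 21 of 33 (63.6%), and all 33 were level within 4-fold. The regulatory ATPase RPT4 was at 198, 149 and 132 CPM at 32 h and 143, 109.5 and 153 CPM at 48 h (difference -0.24, interval -0.82 to 0.33). PRE7, a core subunit and the most abundant member, was at 472, 357 and 222 CPM at 32 h and 281, 215 and 247 CPM at 48 h (difference -0.50, interval -1.32 to 0.32). In PRE7 replicates 1 and 2 of 32 h were above the other 4 libraries. Autophagy and vacuolar protease genes had 11 of 35 inside 2-fold. ATG1, the kinase that starts autophagy, was at 47.8, 55.6 and 85.0 CPM at 32 h and 156, 138 and 158 CPM at 48 h, higher in each 48 h library (difference 1.26, interval 0.15 to 2.37), while PEP4, the vacuolar protease A, was at 2645, 1641 and 3039 CPM at 32 h and 1303, 1897 and 2096 CPM at 48 h and overlapped (interval -1.67 to 0.73).

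DNA replication genes and histones had the highest median, 0.39 over the 43 of 44 genes tested (0.82 with library size scaling), with 34 higher means, 7 higher without overlap (16.3%, against 9.99%) and 5 intervals inside 2-fold. HHT1, a histone H3, was at 820.1, 738 and 879 CPM at 32 h and 557, 748 and 773 CPM at 48 h (difference -0.23, interval -1.26 to 0.80). TOP2, topoisomerase II, was at 13.5, 20.9 and 25.9 CPM at 32 h and 39.1, 34.8 and 34.8 CPM at 48 h, higher in each 48 h library (difference 0.85, interval 0.23 to 1.47). Sulfate assimilation and methionine genes had 14 of 21 higher means (median 0.28, and 0.71 with library size scaling). Without overlap were 4, all higher (19.0%, against 9.99% of all genes). MET4, the activator of the pathway, was at 119, 149 and 216 CPM at 32 h and 274, 325 and 324 CPM at 48 h (difference 0.93, interval -0.07 to 1.94), and MET17, its abundant sulfhydrylase, at 499.8, 499.6 and 515 CPM at 32 h and 329.7, 428 and 607 CPM at 48 h (interval -1.57 to 1.27). At 32 h MET17 was nearly the same in all libraries, and at 48 h it spread on both sides of them.

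Nutrient genes gave a mixed picture. Of 135 tested transporters of the major facilitator superfamily (137 listed), 42 had an interval inside 2-fold, and 17 were higher and 9 lower without overlap (12.6% and 6.67%, against 9.99% and 10.7% of all genes). WICANDRAFT_83918, the most abundant, was at 4429.9, 3634 and 4502 CPM at 32 h and 2140.1, 4229.9 and 5281 CPM at 48 h (interval -1.64 to 1.42), and WICANDRAFT_33037 at 4.52, 4.09 and 6.76 CPM at 32 h and 14.2, 18.4 and 29.6 CPM at 48 h, higher in each 48 h library (difference 2.01, interval 0.39 to 3.63). Amino acid transporters had 19 of 51 inside 2-fold. The most abundant, WICANDRAFT_27123, was at 738, 618 and 685 CPM at 32 h and 557, 474 and 596 CPM at 48 h, without overlap but with a difference of only -0.33 (interval -1.70 to 1.05). THI4, which makes the thiazole of thiamine, was at 2319, 2352 and 4955 CPM at 32 h and 788, 751 and 947 CPM at 48 h. Each 48 h value was lower (difference -1.95, SE 0.72, interval -3.48 to -0.43), and all 7 genes of the thiamine and vitamin B6 list had lower means (5 with library size scaling). Zinc and iron uptake genes had 7 of 26 inside 2-fold (median -0.01), with FET5 at 325, 225 and 151 CPM at 32 h and 156, 168 and 278 CPM at 48 h. Ergosterol genes had 5 of 22 inside 2-fold, and 16 of the 22 had their highest 32 h value in replicate 3 and 19 their highest 48 h value in replicate 2. In branched-chain amino acid synthesis 1 of 8 lay inside 2-fold, the acetolactate synthase subunit ILV6 (difference -0.38, interval -0.97 to 0.21). In the fit of the 6 libraries alone, 6 of these 8 were level within 2-fold by adjusted equivalence (75%, against 42.7% of all genes).

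Of 9 genes often used as references, 0 had an interval inside 2-fold. ACT1, actin, was at 811, 868 and 1088 CPM at 32 h and 612, 921 and 704 CPM at 48 h (difference -0.31, interval -1.17 to 0.55). ALG9, a mannosyltransferase, was at 2070.3, 1233.6 and 664 CPM at 32 h and 796, 755 and 772 CPM at 48 h, and TAF10, a TFIID subunit, at 51.2, 49.9 and 37.9 CPM at 32 h and 48.7, 38.3 and 36.2 CPM at 48 h. ALG9 was close to constant at 48 h and spread over a wide range at 32 h (interval -1.81 to 0.26), and TAF10 had an interval of -1.06 to 0.72. The tubulins TUB1 and TUB2 had the largest differences of the 9, 0.88 and 0.91, with overlap and intervals of -0.59 to 2.36 and -0.61 to 2.43. IPP1, at -0.88, and PDA1, at -0.70, were lower without overlap (22.2% of the 9, against 10.7% of all genes), and 0 were higher without overlap.

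The genes furthest from level were few in each direction and none passed in edgeR. DESeq2 called a pair, both without annotation. WICANDRAFT_83430 was at 15939.8, 10117 and 5431 CPM at 32 h and 1979, 1967 and 1645 CPM at 48 h. WICANDRAFT_69563 was at 615, 263 and 89.8 CPM at 32 h and 54.5, 16.5 and 12.1 CPM at 48 h. Neither overlapped, both had their highest value in replicate 1 of 32 h, and both had DESeq2 adjusted p = 0.03, while edgeR's differences were -2.49 (interval -3.82 to -1.16) and -3.54 (interval -5.35 to -1.74). Their unadjusted edgeR p were 0.00182 and 0.00181.

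By the rule for named genes, the higher side was led by RFA1, a subunit of replication protein A that binds single-stranded DNA, at 41.7, 57.2 and 57.3 CPM at 32 h and 116, 98.8 and 108 CPM at 48 h (difference 1.05, interval 0.41 to 1.68). SEC9, a SNARE of secretion, was at 16.4, 17.8 and 19.6 CPM at 32 h and 36.2, 29.4 and 43.9 CPM at 48 h (difference 1.03, interval 0.40 to 1.65). KAR2 was at 55.9, 54.1 and 62.1 CPM at 32 h and 159, 95.7 and 128 CPM at 48 h (difference 1.15, interval 0.41 to 1.90). The 3 libraries of 32 h were close together in each of these genes. AGC1, the mitochondrial aspartate and glutamate carrier, was at 42.5, 39.5 and 46.2 CPM at 32 h and 110.2, 79.1 and 105 CPM at 48 h (difference 1.20), and CTR9, of the Paf1 complex, at 12.9, 12.3 and 15.6 CPM at 32 h and 21.5, 22.5 and 38.0 CPM at 48 h (difference 1.01).

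On the lower side stood CSS2, with no described function here, at 37.2, 30.4 and 14.4 CPM at 32 h and 7.79, 5.85 and 8.14 CPM at 48 h (difference -1.91, interval -2.99 to -0.84), and MPO1, a dioxygenase of fatty acid breakdown in S. cerevisiae, at 2468, 1430.2 and 1181 CPM at 32 h and 655, 478 and 563 CPM at 48 h (difference -1.58, interval -2.55 to -0.62). LSC2, FBP1 and HSP31, given above, complete the 5. In the 5 lower genes the 48 h values lay closer together than the 32 h values, and replicate 3 had the lowest 32 h value.

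**Figure D4:**
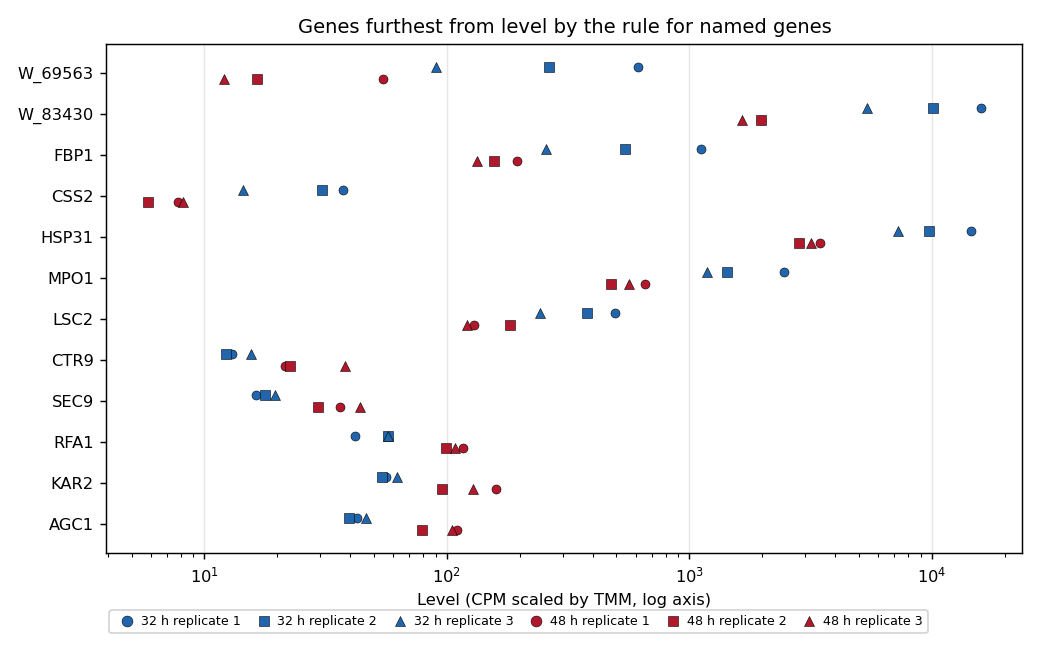
Level in each of the 6 libraries (CPM scaled by TMM, log axis) of the genes with the smallest unadjusted p in each direction by the rule for named genes and of the pair called by DESeq2, with 32 h in blue, 48 h in red and marker shape for the replicate; W_ stands for WICANDRAFT_. In the genes lower at 48 h the lowest 32 h marker is replicate 3, and the 32 h markers of RFA1, SEC9, KAR2 and AGC1 lie close together.

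How small a shift could be resolved depended on level. Over all genes the 95% interval extended by a median of 0.87 log2 units (1.83-fold) to either side of the estimate. To be the single call of its table, the median gene needed a change of 2.73 log2 units (6.62-fold). Genes of 10 to 100 CPM were resolved best, to 1.73-fold on either side, with a single call at 5.53-fold, and 39.1% of 3352 lay inside 2-fold. Genes of 1 to 10 CPM and of 100 to 1000 CPM were resolved to 1.91-fold and 1.92-fold, and 20.1% of 1832 and 16.1% of 771 lay inside 2-fold. Below 1 CPM the figure was 3.53-fold for 274 genes, and above 1000 CPM it was 2.47-fold for 98, with 0 inside 2-fold in each class. These figures are from the fit of all 15 libraries, which share one estimate of the spread. With the 6 libraries alone the median over all genes was 1.59-fold. With 16 h replicate 2 left out of the full fit it was 1.70-fold.

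Counting error set little of this. The median SE was 0.41 log2 units, and the median SE that counting alone would give was 0.0486, or 1.41% of the variance. For genes above 1000 CPM counting gave 0.00499. The spread between libraries was the larger part, with a median within-time SD of 0.33 log2 units at 32 h and 0.29 at 48 h, against a median absolute change of 0.34. In 3165 genes (50.02%) the change was smaller than the within-time SD. Of the 1802 genes with an interval inside 2-fold, the change was at most 0.48 log2 units, means ran from 1.33 to 522 CPM, and 156 did not overlap between the times, so that a gene can differ in all libraries and still lie inside 2-fold. The reach of the intervals was continuous at this margin, with 0.999998 log2 units just inside and 1.00011 just outside.

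**Figure D5:**
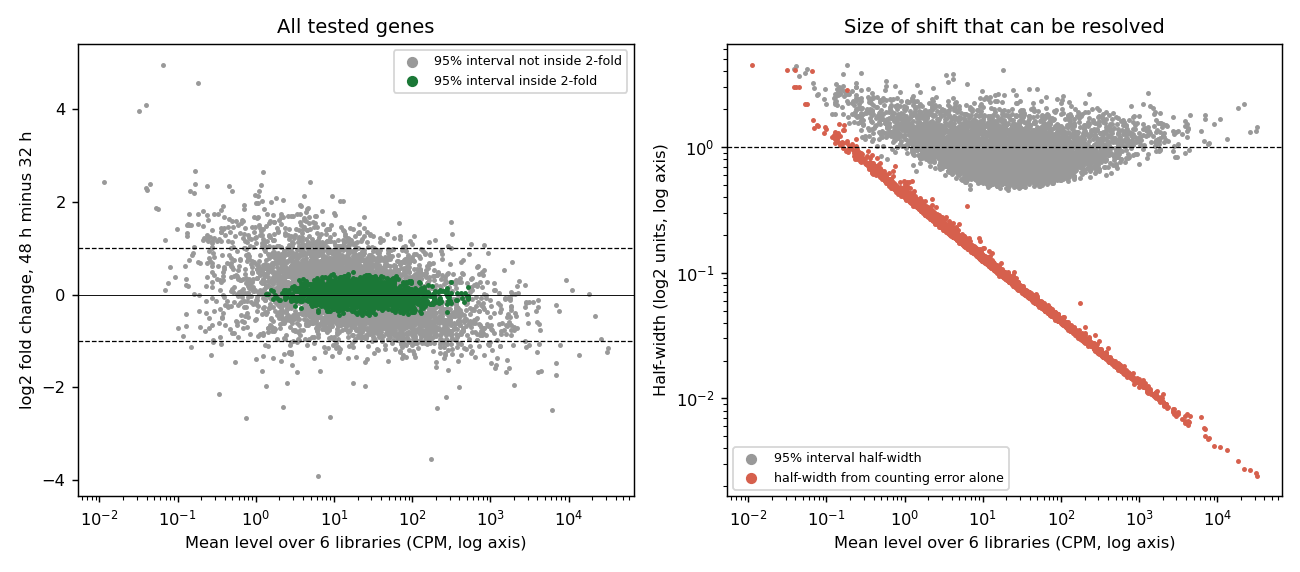
Left, log2 fold change of 48 h against 32 h by mean level (CPM, log axis) for the tested genes, green where the 95% interval lies inside 2-fold (dashed lines); right, distance from the estimate to either end of the 95% interval (grey) and the same from counting error alone (red), both in log2 units on a log axis. Green points are most frequent at 10 to 100 CPM (39.1%) and absent above 1000 CPM, where counting error alone would be smallest.

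The count of level genes depended on the libraries that set the spread. With the 6 libraries alone 2701 genes were level within 2-fold, 1732 of which were among the 1802, and leaving out 1 of those 6 gave 0 to 2264. In the fit of all libraries the number of intervals inside 2-fold, 1802, fell to between 1032 and 1228 when any of these 6 was left out. It was 1032 without replicate 2 of 48 h and 1228 without replicate 1 of 32 h. Leaving out a library of another time gave 1599, without 0 h replicate 1, to 2395, without 16 h replicate 2. Without 16 h replicate 2 and 64 h replicate 3 together it was 2887.

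Small shifts in either direction went with gene length. Across 6327 genes, which are not independent replicates, Spearman's rho of the change with length was 0.217. In groups of equal size by length the median difference was -0.16 for the shortest genes, up to 780 bases, then -0.05, 0.04 and 0.15 for those of 1768 bases and more. Cytosolic and mitochondrial ribosomal proteins and respiratory chain genes, with lower medians at 48 h, have median lengths of 738, 666 and 579 bases, against 1215 for all genes. The part of length in these shifts was not tested. Between a library and the mates of its time the rho with length ranged from -0.135 to 0.0985.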

How the data were processed

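Polyadenylated RNA of whole broth was sequenced at 5 time points with 3 replicates each, from TRIzol extracts and a VAHTS kit per the labels. The authors deposited raw counts per gene, not normalised; per the submitters' processing notes fastp, HISAT2 and HTSeq were used. Their versions, the genome build and the strand setting are not given in the sources used here, so reads from a gene and its antisense partner, or from near-identical paralogs, cannot be told apart. All 6571 identifiers (6417 protein-coding, 154 tRNA) matched locus tags of RefSeq assembly Wican1, which gave lengths and names; symbols rest on homology. Of these genes 3433 had a symbol and 5003 a symbol or description, and 77 were at 0 in all 6 libraries compared.

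Counts were fitted in R 4.3.3 with edgeR 4.0.16 (TMM, filterByExpr by time point, quasi-likelihood, a mean per time point, all 15 libraries, biological coefficient of variation 0.418, residual degrees of freedom 10), contrast 48 h minus 32 h, Benjamini-Hochberg adjustment over 6327 genes, threshold 0.05. The Wald SE of that fit gave 95% intervals, which 4 genes lacked, and equivalence tests (a pair of one-sided tests at margins of 1.5-, 2- and 4-fold, adjusted over all genes). SD and SE are on the log2 scale, with a pseudocount of 0.5 CPM for the SD. The p for library distance is two-sided by construction. TMM factors were 1.01 to 1.41 at 32 h and 1.58 to 1.83 at 48 h. Totals of 17.6 to 25.9 M counts make counting error small beside the spread. Replicate pairs of a time differed by far more than sampling noise (chi-square of 165 or more per degree of freedom).

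Named genes are the 20 with the highest mean CPM, the 10 annotated genes of at least 100 CPM whose interval reached least far, in each direction the 5 annotated genes with the smallest p, at least 20 CPM and no overlap, genes called by DESeq2, per list the most abundant and the furthest member of at least 10 CPM, and an aroma panel; further list members are named as examples, chosen after their values were seen. The members, the 29 lists (matched by symbol or description) and the rules were chosen with earlier results of these data known. Alternatives were DESeq2 1.42.0, limma-voom (limma 3.58.1), other scalings and filters, only the 6 libraries, robust shrinkage, a replicate block and libraries left out. The scripts were tested on simulated data.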

Additional observations from a re-analysis of the deposited data

How the results depend on the processing

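The counts of 0 risen and 0 fallen genes held under limma-voom, median-of-ratios and library size scaling, no filter, at least 10 CPM, only the 6 libraries, robust shrinkage and each of the 15 libraries left out; exceptions were DESeq2 (2 fallen) and, added after seeing the data, the 6-library fit without 32 h replicate 3 (215 risen, 102 fallen). The count level within 2-fold by adjusted equivalence, 0, was unstable: 1172 with DESeq2, 535 at a mean of at least 10 CPM, 2701 with only the 6 libraries, 2716 without 16 h replicate 2 and 64 h replicate 3 together, 0 to 1821 with a library left out (1821 without 16 h replicate 2, 849 without 64 h replicate 3), and 0 to 2264 within the 6 libraries. Intervals inside 2-fold, 1802, numbered 479 with library size scaling, which moves the median of all genes to 0.45, 2000 with DESeq2 and 2885 with only the 6 libraries. The excess of distance between times ranged from -0.002 (without 48 h replicate 3) to 0.0396 with a library left out; p = 0.2 by exact permutation with Pearson correlation (0.00946) and at 100 CPM (0.0374). Same-numbered replicates deviated with correlations of 0.567, -0.57 and 0.106, so the numbers did not pair the libraries; with a replicate block 0 genes rose, 0 fell, 0 were level within 2-fold and 259 had unadjusted p under 0.05. Of 2728 recomputed differences of named genes, 108 turned sign and 61 moved by over 1 SD; the cause was not tested. Fits that leave 2 libraries at a time assume that they vary like the others. By medians, counting error came to 14.4% of the variance below 1 CPM, 4.52% at 1 to 10 CPM and less above. The spread between libraries was the larger part in each class.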

Other observations

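The fit of 5 libraries that left out replicate 3 of 32 h, chosen after seeing the data, named 215 genes as risen and 102 as fallen out of 6327 (edgeR's quasi-likelihood test, adjusted p under 0.05), or 3.4% and 1.61%. That library was the one of 32 h most like a library of 48 h, so the calls are no independent evidence of a change. Among the risen were 6 of 43 DNA replication and histone genes, and among the fallen 5 of 69 mitochondrial ribosomal proteins. Transporters of the major facilitator superfamily, with 5 of 135 risen, and cytosolic ribosomal proteins, with 1 of 83 fallen, were near the share of all genes. No gene of the proteasome, of the aldehyde dehydrogenases or of the list of Ehrlich and ester genes was called in either direction. With the replicate in place these calls numbered 0 and 0, and the replicate's part in the spread was not tested beyond this.

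GLC3, the glycogen branching enzyme, was at 1.80 CPM in replicate 2 of 32 h and between 28.4 and 56.3 CPM in the other 5 libraries. Transfer RNA genes took at most 0.00153% of the counts in the 6 libraries.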
